A study of Arabidopsis thaliana with 11 samples.

Results

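Transcripts of 10 SWEET sugar transporters of Arabidopsis thaliana, SWEET1 to SWEET8, SWEET16 and SWEET17, were described in flower, stem and leaf. The members were the probe sets that the platform's annotation pairs with 1 gene of these names, and all 10 genes were found among the 22810 probe sets of the table. SWEET5 was listed there under its other name, AtVEX1, and was matched by its locus. All plants were wild-type Columbia-0, grown 4 to a pot with days at 25 °C and nights at 20 °C. The flower group (4 arrays) held developed flowers and unopened buds taken 29 days after germination. The stem group (4 arrays) held the expanding upper 2 inches of the stem, freed of siliques and pedicels, at the same age. The leaf group (3 arrays) held expanding leaves taken 15 days after germination. Days were lit for 16 h, and flower replicate 4 has no stated photoperiod. Plants came from a growth chamber or a greenhouse, and each of the 11 RNA samples was hybridised to 1 Affymetrix ATH1 array.

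SWEET proteins are membrane channels that let sugars pass in either direction down their concentration gradient. In plants they fall into 4 clades. Members of clades I and II mainly carry glucose and other hexoses, members of clade III carry sucrose, and members of clade IV sit in the vacuolar membrane and carry fructose among other sugars. Flowers hold several tissues that import sugar, among them the tapetum, which feeds developing pollen, and the pollen grains themselves.

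Levels are given as normalised intensity, the arrays' signal after scaling and quantile normalisation. A probe set's brightness depends on its own probes, so a level of 1 gene is not set against that of another. Differences are log2 fold changes on the log2(intensity + 32) scale with their standard error (SE), which understates the change of weak signals. Calls needed an adjusted p under 0.05 from limma (Benjamini-Hochberg over the 17526 probe sets tested) and a log2 fold change of at least 1 in size. One model of all 11 arrays gave the 3 tissue contrasts, which share arrays pairwise. All p-values were two-sided. Arrays from different sites came from different plants, but nothing in the labels ties the replicates within a site to separate plants. The p-values thus cover only the spread among these RNA samples, which within a site may be technical.

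The arrays differed in RNA quality, by the 3'/5' signal ratios of control transcripts. The actin ratio was 3.22 to 8.23 in flower, 2.67 to 12.2 in stem and 1.83 to 3.29 in leaf. The ubiquitin ratio was 1.97 to 2.21 in flower, 1.29 to 2.72 in stem and 1.24 to 1.62 in leaf, so flower and leaf did not overlap, and its part in the flower versus leaf results was not tested. Stem replicate 3 stood apart, with the highest actin ratio and the lowest mean correlation with its own tissue (0.908). Leaving it out left the counts of called members at 8, 3 and 7 in the 3 contrasts below. Leaf differed from the other tissues in plant age and in RNA preparation (Trizol alone, against Trizol and a silica column for stem and flower), so these cannot be told apart from tissue in the contrasts with leaf.

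The sites of some arrays were in doubt. For 7 of the 11 arrays the GapC factor stated in the labels set the GapC signal to 8500 within about 1 unit. In replicates 2 and 3 of both stem and flower the stated factor matched the other array of the pair, so the sites of these 4 arrays may be crossed. Values within a site are therefore also given with these sites exchanged for many contrasts, an alternative chosen after the data were seen. Within-site values given only as labelled can move as well. The growth chamber leaf group is 1 array and the greenhouse stem group is 1 array, either way. Within-site contrasts with these groups assume that the lone array varies like the others, so a call lost there does not show a smaller difference.

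Among the 10 members, 6 had higher transcript levels in flower than in both stem and leaf: SWEET1, SWEET3, SWEET4, SWEET5, SWEET7 and SWEET8. This pattern was called for 4.72% of all probe sets tested. SWEET16 was lower in flower than in both other tissues, a pattern called for 2.11% of probe sets, and SWEET2 was higher in leaf than in both other tissues (4.69%). SWEET1 and SWEET4 were also lower in stem than in both other tissues (2.52%). SWEET6 and SWEET17 were called in none of the 3 contrasts, and no member was called higher in stem than in both other tissues (4.30%) or lower in leaf than in both (3.16%). These are bulk tissues, in which fewer cells of a type and less RNA per cell cannot be told apart.

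**Figure D1:**
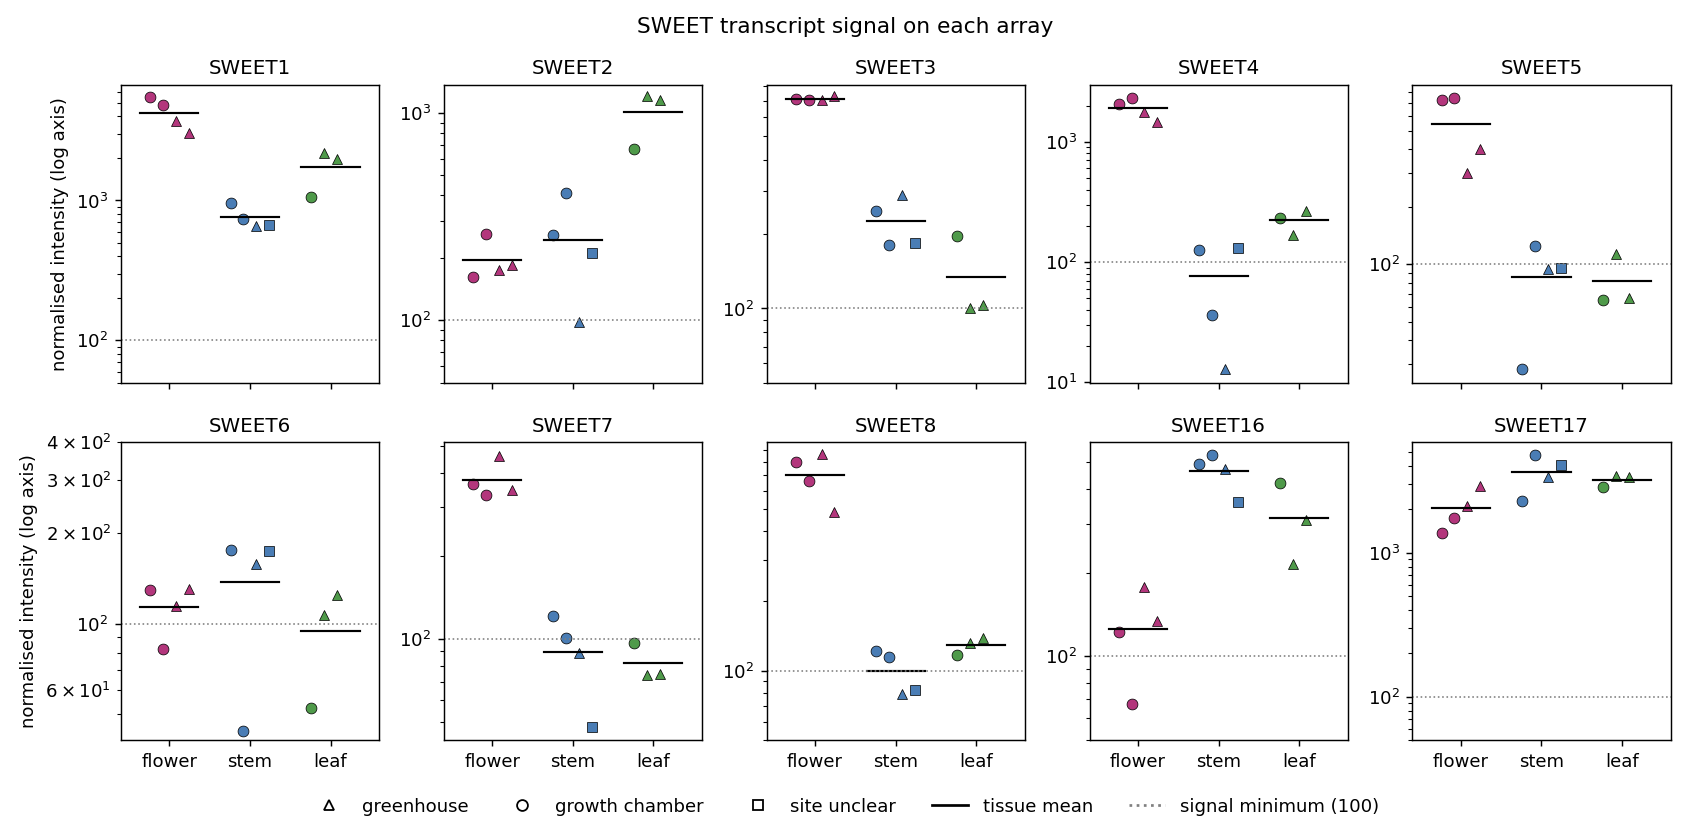
Normalised intensity (log axis) of the 10 SWEET transcripts on each array in flower, stem and leaf, with the tissue mean as a bar and the site of growth as the symbol. For SWEET3, SWEET4, SWEET5, SWEET7 and SWEET8 all 4 flower arrays lie well above the 7 other arrays, while SWEET6 overlaps across the 3 tissues.

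Of clade I, SWEET1 (AT1G21460, probe set 260876_at) encodes a glucose transporter of the plasma membrane. Its intensity was 5475, 4783, 3721 and 3020 in the 4 flower arrays, against 959, 741, 661 and 663 in stem and 1061, 2188 and 1964 in leaf. All flower arrays lay above all leaf arrays, and all leaf arrays above all stem arrays, although leaf replicate 1 came within about 100 units of stem replicate 1. The log2 fold change was 2.42 ± 0.24 (SE) in flower versus stem (limma, adjusted p = 4.067e-06). It was 1.30 ± 0.26 in flower versus leaf (limma, adjusted p = 0.001425) and -1.12 ± 0.26 in stem versus leaf (limma, adjusted p = 0.00391). The contrasts with leaf turned on single leaf arrays. Without leaf replicate 1 the flower versus leaf value was 0.98, and without leaf replicate 2 or 3 the stem versus leaf value was -0.920 or -0.996, each short of the minimum fold. Within the greenhouse arrays flower versus leaf was 0.68, and within the growth chamber arrays 2.24. Stem versus leaf was -1.602 in greenhouse arrays, with 1 stem array, and -0.32 in growth chamber arrays, with 1 leaf array (limma, adjusted p = 0.4343). With sites exchanged these were -1.44 and -0.40 for stem versus leaf, and 0.86 and 2.06 for flower versus leaf. Flower versus stem was 2.29 and 2.56 as labelled.

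SWEET2 (AT3G14770, 256548_at), known in Arabidopsis as a vacuolar glucose transporter that limits sugar loss from roots, was the only member called higher in leaf than in both other tissues. Its intensity was 161, 262, 175 and 185 in flower, 258, 410, 98.2 and 211 in stem, and 668, 1205 and 1154 in leaf. Every leaf array was brighter than every stem and flower array, and the stem and flower arrays overlapped. SWEET2 was lower in flower than in leaf, with a log2 fold change of -2.17 ± 0.34 (SE; limma, adjusted p = 0.0002563) and lower in stem than in leaf, at -1.999 ± 0.343 (limma, adjusted p = 0.0005065). Flower versus stem was -0.17, with a 95% interval of -0.85 to 0.52, and it turned to 0.11 under GapC scaling and 0.08 under trimmed mean scaling. Stem versus leaf was -3.22 within greenhouse arrays and -0.97 within growth chamber arrays, where leaf was 1 array and it missed the threshold (limma, adjusted p = 0.1455). With sites exchanged it was -1.45 within greenhouse arrays and -1.85 within growth chamber arrays (limma, adjusted p = 0.01354 and 0.09542), so the order of the sites turned. Flower versus leaf was -2.51 and -1.55 within greenhouse and growth chamber arrays as labelled, and -2.26 and -1.81 when exchanged (limma, adjusted p = 0.001058 and 0.1001).

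SWEET3 (AT5G53190, 248245_at), also of clade I, had an intensity of 712, 704, 701 and 733 in flower, 248, 181, 290 and 185 in stem, and 197, 100.4 and 104 in leaf. The flower arrays were close to each other, with a coefficient of variation of 2.03%, against 23.4% in stem and 41.1% in leaf. No flower array overlapped another tissue, and leaf replicate 1 lay within the range of stem. SWEET3 was higher in flower than in leaf by 2.22 ± 0.22 (SE; limma, adjusted p = 5.59e-06) and higher than in stem by 1.55 ± 0.21 (limma, adjusted p = 5.995e-05). Stem versus leaf was 0.66 (limma, adjusted p = 0.03391), under the minimum fold. It was 1.26 in greenhouse arrays, with 1 stem array, and 0.09 in growth chamber arrays, with 1 leaf array. With sites exchanged these stem versus leaf values were 0.67 and 0.39. Within greenhouse and growth chamber arrays flower versus leaf was 2.48 and 1.69, and flower versus stem 1.22 and 1.60. With sites exchanged flower versus leaf was 2.49 and 1.69. Over all alternatives flower versus stem ranged from 1.22 to 1.82.

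Clade II held 5 members, of which 4 were called higher in flower in both contrasts. SWEET4 (AT3G28007, 257271_at), a transporter of glucose and fructose known from leaf veins and other vascular tissue, had the largest flower differences of the 10 members in both contrasts. Its intensity was 2076, 2290, 1774 and 1461 in flower, 125, 36.1, 12.9 and 132 in stem, and 230, 169 and 266 in leaf. All flower arrays exceeded all leaf arrays, which exceeded all stem arrays, and the stem arrays spread most (coefficient of variation 79.6%). The log2 fold change was 4.34 ± 0.36 (SE) in flower versus stem (limma, adjusted p = 7.007e-07), which is 20.2-fold on this scale. With stem arrays at 36.1 and 12.9 beside the others at 125 and 132, this size moved to 5.11 at a pseudocount of 1, to 3.55 at a pseudocount of 100 and to 3.71 with signals floored at 100. Flower versus leaf was 2.93 ± 0.38 (limma, adjusted p = 5.387e-05). Stem versus leaf was -1.41 ± 0.38 (limma, adjusted p = 0.01106), and was -0.92 at a pseudocount of 100 and -0.78 with the floor, both under the minimum fold. Within greenhouse and growth chamber arrays flower versus stem was 5.19 and 4.42, flower versus leaf 2.74 and 3.08, and stem versus leaf -2.45 and -1.34 (the last with limma adjusted p = 0.1058). With sites exchanged flower versus leaf within growth chamber arrays was 2.89 (limma, adjusted p = 0.0644), and stem versus leaf was -1.85 and -1.64 (limma, adjusted p = 0.01758 and 0.2222).

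SWEET5 (AT5G62850, 247424_at) is also known as VEX1, a name taken from the vegetative cell of the pollen grain, in which it is expressed. Its intensity was 728, 738, 302 and 403 in flower, 28.3, 124, 94.2 and 95 in stem, and 65.3, 113 and 66.7 in leaf. The flower arrays fell into a brighter pair (replicates 1 and 2) and a dimmer pair (replicates 3 and 4), and both pairs lay above every stem and leaf array. As labelled, the brighter pair was from the growth chamber and the dimmer pair from the greenhouse. Greenhouse minus growth chamber in flower was -1.01 as labelled and 0.20 with sites exchanged. SWEET5 was higher in flower than in leaf by 2.27 ± 0.37 (SE; limma, adjusted p = 0.0002931) and higher than in stem by 2.28 ± 0.34 (limma, adjusted p = 0.0001446). The stem and leaf arrays differed by -0.01, with a 95% interval of -0.80 to 0.78, and was positive under GapC (0.43), trimmed mean (0.04) and median scaling (0.06). Within greenhouse and growth chamber arrays flower versus leaf was 1.67 and 2.97, and flower versus stem 1.59 and 2.98. With sites exchanged flower versus leaf was 2.28 and 2.37 (limma, adjusted p = 0.005834 and 0.09487), and flower versus stem 1.89 and 2.53.

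SWEET6 (AT1G66770, 256371_at) was the clade II member with no call. Its intensity was 129, 82.2, 114 and 130 in flower, 176, 44.0, 157 and 175 in stem, and 52.6, 107 and 124 in leaf. The 3 tissues overlapped, and 3 of the 11 arrays were under 100. Its differences were 0.24 in flower versus leaf (95% interval -0.55 to 1.03), 0.37 in stem versus leaf (-0.42 to 1.15) and -0.13 in flower versus stem (-0.85 to 0.60). The last was positive under GapC (0.17) and trimmed mean scaling (0.13). The first and second intervals reach past the minimum fold.

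SWEET7 (AT4G10850, 254956_at) had an intensity of 364, 333, 461 and 346 in flower, 121, 100.4, 88.9 and 48.1 in stem, and 96.6, 73.6 and 74.6 in leaf. All leaf arrays were under 100, stem and leaf overlapped, and all flower arrays were well above them. SWEET7 was higher in flower than in leaf by 1.84 ± 0.25 (SE; limma, adjusted p = 6.812e-05) and higher than in stem by 1.78 ± 0.23 (limma, adjusted p = 4.543e-05). In stem versus leaf it was at 0.06 (95% interval -0.47 to 0.60). Within greenhouse and growth chamber arrays flower versus leaf was 2.02 and 1.56, and flower versus stem 1.84 and 1.42. With sites exchanged flower versus leaf was 1.81 and 1.78. Over all alternatives flower versus stem ranged from 1.34 to 2.12.

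SWEET8 (AT5G40260, 249401_at), also named RPG1 for its ruptured pollen grains when mutated, is a glucose transporter needed for the patterning of the pollen wall. Its intensity was 801, 660, 862 and 484 in flower, 122, 114, 78.8 and 82.5 in stem, and 116, 132 and 138 in leaf. The flower arrays lay above all others and the stem and leaf arrays overlapped. SWEET8 was higher in flower than in leaf by 2.16 ± 0.22 (SE; limma, adjusted p = 6.867e-06) and higher than in stem by 2.47 ± 0.21 (limma, adjusted p = 9.124e-07). In stem versus leaf the value was -0.30 (95% interval -0.78 to 0.18) and turned to 0.18 under GapC scaling. Within greenhouse and growth chamber arrays flower versus leaf was 2.03 and 2.36, and flower versus stem 2.62 and 2.34. With sites exchanged flower versus leaf was 1.84 and 2.54. Over all alternatives flower versus stem ranged from 1.99 to 2.80.

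The clade IV members were not called higher in flower in either contrast. SWEET16 (AT3G16690, 258421_at), a transporter of glucose, fructose and sucrose at the vacuolar membrane, had an intensity of 123, 67.4, 178 and 134 in flower, 492, 531, 473 and 360 in stem, and 419, 215 and 310 in leaf. Every flower array was dimmer than every stem and leaf array, and leaf replicate 1 reached into the range of stem. SWEET16 was lower in flower than in stem, with a log2 fold change of -1.69 ± 0.25 (SE; limma, adjusted p = 0.000135) and lower than in leaf, at -1.15 ± 0.27 (limma, adjusted p = 0.004755). The difference from leaf was -0.94 without leaf replicate 1 and -0.95 without flower replicate 2. It was also short of the minimum fold under trimmed mean scaling (-0.89) and at a pseudocount of 100 (-0.87). Under GapC scaling, which moved the median of all probe sets in this contrast to 0.70, it was -0.35. It was -0.64 within greenhouse arrays (limma, adjusted p = 0.1225) and -1.86 within growth chamber arrays, and flower versus stem was -1.44 and -2.13. With sites exchanged the flower versus leaf call was kept within greenhouse arrays (-1.18; limma, adjusted p = 0.04517) and lost within growth chamber arrays (-1.33; limma, adjusted p = 0.0763). Flower versus stem was then -2.13 and -1.52. Its stem versus leaf value was 0.55 (95% interval -0.03 to 1.12).

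SWEET17 (AT4G15920, 245524_at), a vacuolar fructose transporter that sets the fructose content of leaves, was at 1374, 1747, 2113 and 2884 in flower, 2280, 4796, 3345 and 4070 in stem, and 2866, 3388 and 3336 in leaf. The brightest flower array, replicate 4, lay above 1 stem array and 1 leaf array, so flower overlapped both tissues. Flower versus stem was -0.83 ± 0.24 (SE; limma, adjusted p = 0.0155), under the minimum fold, and flower versus leaf -0.70 ± 0.26 (limma, adjusted p = 0.05493). The stem versus leaf value was 0.13 (95% interval -0.43 to 0.69). Under median centring flower versus leaf was -1.10 (limma, adjusted p = 0.003387), which passed both thresholds. Flower versus stem passed the minimum fold without flower replicate 4 (-1.02), without stem replicate 1 (-1.03) and under median centring (-1.26). Within greenhouse and growth chamber arrays flower versus stem was -0.43 and -1.08 as labelled, and -1.08 and -0.69 with sites exchanged.

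**Figure D2:**
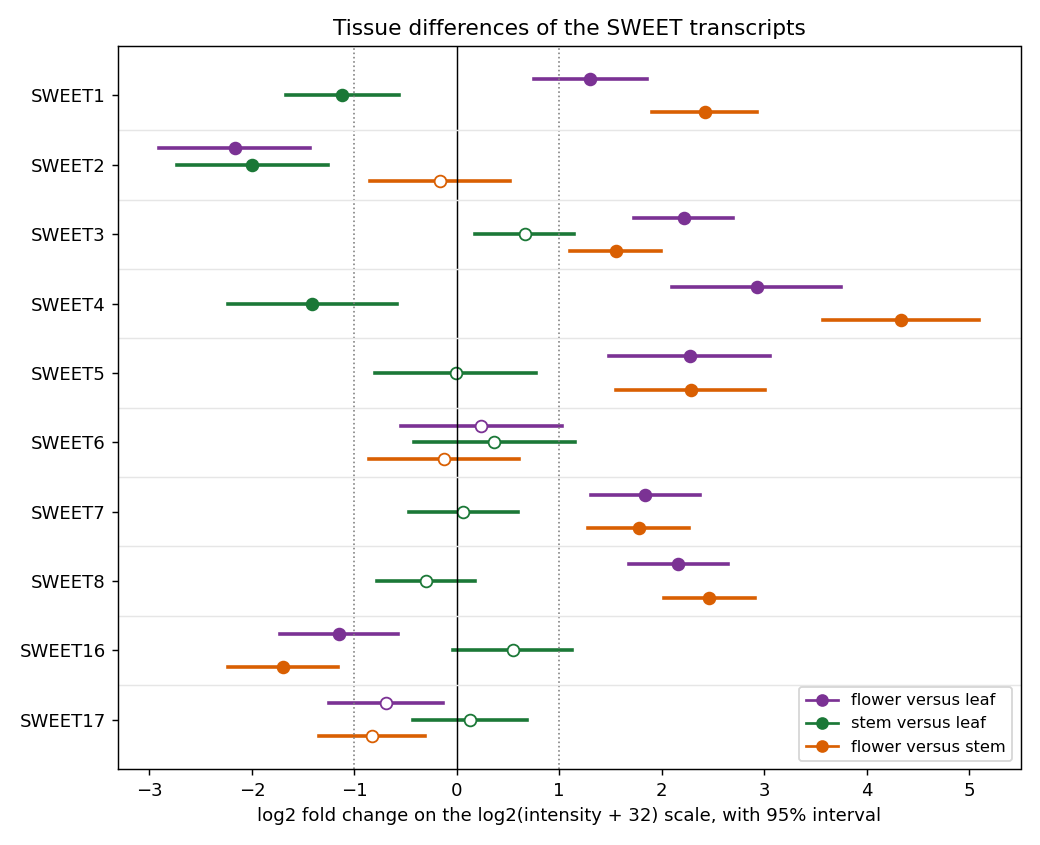
Log2 fold change with its 95% interval for each SWEET transcript in flower versus leaf, stem versus leaf and flower versus stem; filled points were called and dotted lines mark the minimum fold. SWEET4 reaches 4.34 in flower versus stem, while SWEET16 was called lower in flower than in both tissues and SWEET2 lower than in leaf.

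Calls in either direction covered 18.5% of all probe sets in flower versus leaf, 18.7% in stem versus leaf and 18.0% in flower versus stem. In flower versus leaf 6 members were higher, where 9.17% of all probe sets were called higher, and 2 were lower, where 9.28% were. In stem versus leaf no member was higher (9.33%) and 3 were lower (9.35%), namely SWEET1, SWEET2 and SWEET4. Under GapC scaling this split was 2 higher and 1 lower: SWEET3 (1.09; limma, adjusted p = 0.006539) and SWEET16 (1.07; limma, adjusted p = 0.01942) were called higher, SWEET2 (-1.51) stayed lower, and SWEET1 (-0.58) and SWEET4 (-0.89) were no longer called. That scaling moved the median of all probe sets in this contrast to 0.46. Of the 17336 probe sets tested under it, 3687 were called higher in stem and 614 lower, so higher calls were frequent among all probe sets too. In flower versus stem 6 members were higher (9.85%) and 1 was lower (8.10%). The median log2 fold change of the 10 members was 1.57 in flower versus leaf, 0.03 in stem versus leaf and 1.66 in flower versus stem, and that of all probe sets was -0.02, -0.04 and -0.03. All 10 members passed the signal minimum of 100 in at least 3 arrays, but SWEET5 and SWEET7 did so only through flower, so that their passing already required a high flower signal. Groups did not overlap for 8, 3 and 7 members in the 3 contrasts, against 41.9%, 39.3% and 33.1% of probe sets.

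The clades differed in their counts. In clade I, 2 of 3 members were higher in flower than in stem and none was lower, and in clade II 4 of 5 were higher. In clade IV 1 of 2 was lower and none was higher. In flower versus leaf clade I had 2 members higher and 1 lower, clade II 4 higher and none lower, and clade IV 1 lower and none higher. The median flower versus stem log2 fold change was 1.55 in clade I, 2.28 in clade II and -1.26 in clade IV, beside 2.27 in the 6 clade III genes tested. Of clade II, SWEET5, whose value is the median of that clade, and SWEET7 passed the signal minimum only through flower. Over all probe sets 9.85% were called higher in flower than in stem and 8.10% lower, and 9.17% were called higher in flower than in leaf and 9.28% lower. Whether the clades differ was not tested.

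The tissue labels were checked with marker genes. The summed intensity of 4 of 5 listed tapetum markers (A9, AMS, EMS1 and ATA27) was 7016 to 8003 in flower, against 58.8 to 190 in stem and 171 to 200.4 in leaf, and all 4 were called higher in flower in both contrasts. The sum of 4 of 5 pollen markers (PLIM2a, ANX1, ANX2 and AGL104) was 1618 to 2315 in flower, against 39.2 to 151 in stem and 37.5 to 168 in leaf. Of the 3 pollen markers tested, 3 were higher than in leaf and 2 higher than in stem. These 3, and the tapetum markers A9, AMS and ATA27, passed the signal minimum only through flower. Their passing thus already required a high flower signal. AGL104 was not called in flower versus stem (0.71, limma, adjusted p = 0.2393), and ANX1 was not tested. The tapetum and pollen sums were highest in flower, as were the 6 SWEET transcripts called higher there. The part of anther and pollen cells in those 6 results was not tested. The sum of 2 of 6 secondary wall markers was 69 to 230 in flower, 2379 to 4799 in stem and 29 to 176 in leaf. The sum of 4 of 5 photosynthesis markers was 33118 to 54177 in flower, 65932 to 88001 in stem and 96474 to 98902 in leaf. All 4 were called lower in flower than in leaf. In stem versus leaf, where SWEET2 was called lower, none of the 4 was called, but all had lower values in stem. These were -0.50 for RCA, -0.54 for PRK (limma, adjusted p = 0.01154), -0.30 for SBPASE and -0.33 for LHCB4.1, all under the minimum fold. Leaf was also the tissue in which SWEET2 was highest, and the part of photosynthesis transcripts in the SWEET2 result was not tested. Markers of floral organ identity and of seeds were not used here.

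The genes whose profile was most like each called member were taken by Pearson's r of log2 intensity over the 11 arrays, among 1297 named genes. This r is a description, since the arrays fall into 3 tissues and tissue differences carry most of it. SWEET1 and SWEET4 shared their closest gene, the clade III sucrose transporter SWEET13 (r = 0.967 and 0.971). SWEET13 averaged 481 ± 51.6 in flower, 163 ± 28.0 in stem (SD, n = 4 each) and 273 ± 41.3 in leaf (SD, n = 3), the same order of tissues as both members. The next was BSMT1, a methyltransferase that makes methyl benzoate and methyl salicylate, for SWEET1 (0.950) and SHT, a spermidine hydroxycinnamoyl transferase of the tapetum, for SWEET4 (0.953).

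SWEET8 was closest to PLIM2a, an actin-binding LIM protein of pollen (r = 0.983), which averaged 1663 ± 257 in flower, 14.4 ± 8.05 in stem (SD, n = 4 each) and 19.5 ± 3.87 in leaf (SD, n = 3). The serine carboxypeptidase-like gene scpl41 was near both SWEET8 (0.980) and SWEET7 (0.966). SWEET7 was equally near SWEET9, the sucrose transporter of nectaries (0.966), which averaged 1409 ± 169 in flower, 148 ± 40.0 in stem (SD, n = 4 each) and 147 ± 45.5 in leaf (SD, n = 3). SWEET5 was closest to another serine carboxypeptidase-like gene, SCPL43 (0.963), and to APPB1 (0.948). SWEET3 was closest to the alpha-tubulin gene TUA1 (0.966) and to LCR72, which encodes a small cysteine-rich protein (0.961).

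The members with other patterns had other neighbours. SWEET2, high in leaf, was closest to FZL, a chloroplast membrane-remodelling GTPase (r = 0.973), and to the manganese transporter MTP11 (0.972). FZL averaged 227 ± 60.5 in flower, 232 ± 86.6 in stem (SD, n = 4 each) and 659 ± 168 in leaf (SD, n = 3). SWEET16, low in flower, was closest to the exocyst subunit gene SEC10 (0.919) and to PIA1, a protein phosphatase (0.918). PIA1 averaged 386 ± 42.5 in flower, 1218 ± 253 in stem (SD, n = 4 each) and 1186 ± 239 in leaf (SD, n = 3).

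Other sugar genes were counted beside the members. Of the 7 clade III SWEET genes, the sucrose transporters, 6 had a probe set. In flower versus leaf 4 of these were higher and 1 was lower, and in flower versus stem 5 were higher and none lower. In stem versus leaf 1 was lower. Over all probe sets 9.17% were called higher and 9.28% lower in flower versus leaf. In flower versus stem 9.85% were called higher, and in stem versus leaf 9.35% were called lower. SWEET10 had the largest increase over leaf in flower, 3.37 ± 0.49 (SE; limma, adjusted p = 0.0001285). SWEET11, which exports sucrose from leaf phloem parenchyma, was lower than in leaf in both flower (-1.97 ± 0.23; limma, adjusted p = 2.21e-05) and stem (-2.13 ± 0.23; limma, adjusted p = 1.499e-05). Of the SWEET genes tested, SWEET2 and SWEET11 were called lower than leaf in both.

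Of 10 genes for vacuolar sugar carriers 6 were tested, and 1 was called. That gene, SFP1, a sugar-porter family protein, was lower in flower than in leaf, at -2.32 ± 0.22 (SE; limma, adjusted p = 2.992e-06) and than in stem, at -1.84 ± 0.20 (limma, adjusted p = 1.135e-05), and so had the direction of SWEET16 in both contrasts. Of 14 STP hexose-proton symporters 2 were tested, as were 2 of 8 invertases, and none of these was called in any contrast. Over all probe sets 18.5% were called in flower versus leaf, 18.7% in stem versus leaf and 18.0% in flower versus stem. With so few genes tested, the counts of these carriers, symporters and invertases are not read as results about their families. SUC sucrose carriers, sucrose synthases and hexokinases were not analysed here.

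Site of growth was compared over 10 arrays, 5 from the greenhouse and 5 from the growth chamber, with tissue as a covariate. Stem replicate 4 was left out because its title and its protocol text name different sites. All values were also computed with the doubtful sites of stem and flower replicates 2 and 3 exchanged.

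No member was called in greenhouse versus growth chamber, nor was any probe set (0%), and no member had an unadjusted p under 0.05, against 11.1% of probe sets. The lowest unadjusted p was that of SWEET4, 0.05401 (limma, adjusted p = 0.4546), with a log2 fold change of -0.56 and a 95% interval of -1.12 to 0.01. With the sites exchanged SWEET2 had 0.71 and SWEET17 0.46, both with a limma adjusted p of 0.9999 (unadjusted, 0.01295 and 0.03815). SWEET17 was 0.35 with the sites as labelled, and SWEET2 was -0.26, the opposite direction.

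Whether the site difference itself differed between tissues was tested as an interaction. No member had an adjusted p under 0.05 (0.736% of probe sets), and 3 had an unadjusted p under 0.05 (15.2%). SWEET1 was lower in the greenhouse in flower (-0.61) and stem (-0.34) and higher in leaf (0.95; limma, adjusted p = 0.08499). SWEET2 had site differences of -0.17 in flower, -1.46 in stem and 0.79 in leaf (limma, adjusted p = 0.1291), and SWEET3 had 0.02, 0.40 and -0.78 (limma, adjusted p = 0.2766). Each adjusted p here is that of the interaction, not of the value in a single tissue. The greenhouse stem and growth chamber leaf values rest on 1 array each. With sites exchanged these 3 interactions had a limma adjusted p of 0.6827, 0.8714 and 0.7541, and SWEET6 had the lowest of the members, 0.4822.

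**Figure D3:**
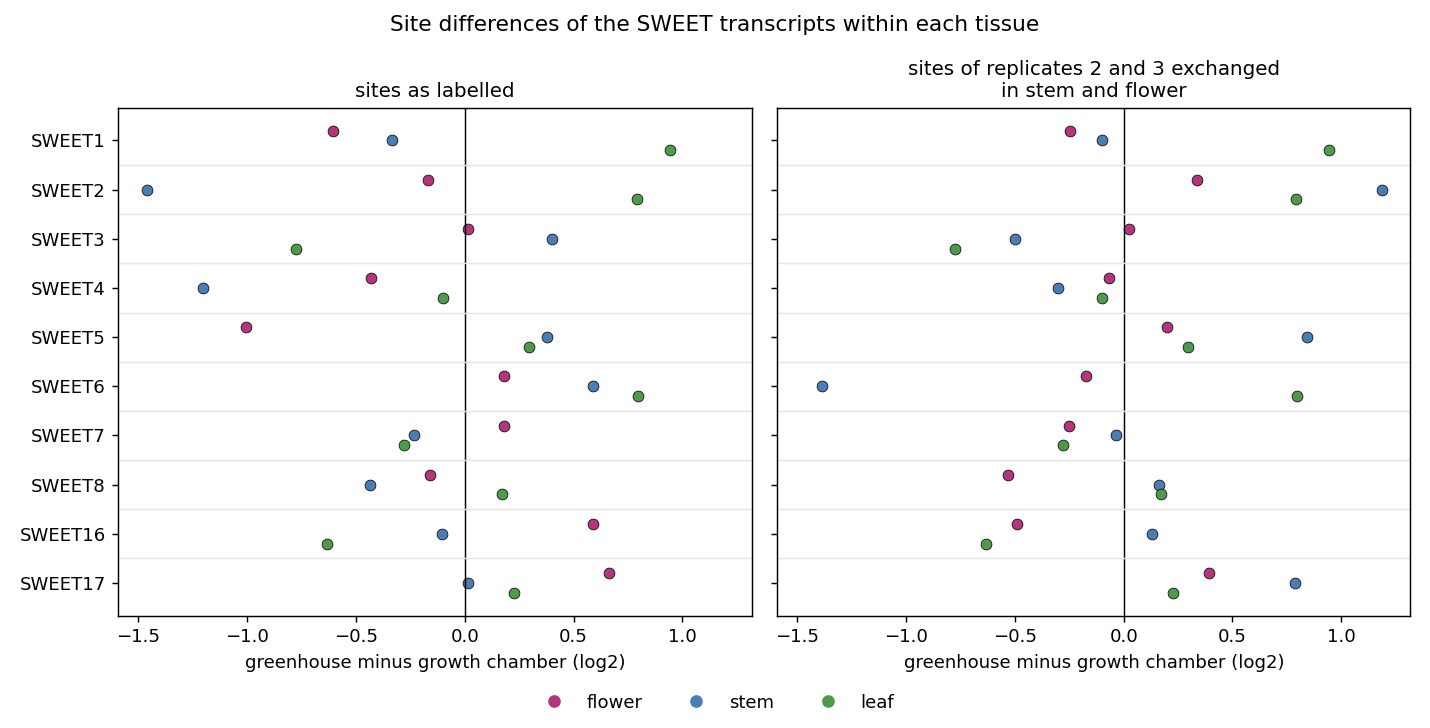
Greenhouse minus growth chamber difference (log2) of each SWEET transcript within flower, stem and leaf, with the sites as labelled (left) and with those of stem and flower replicates 2 and 3 exchanged (right). The stem value of SWEET2 is -1.46 as labelled and 1.19 when exchanged, and the leaf values are the same in both panels.

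The 18 called tissue differences of the members were recomputed under 29 alternatives of scaling, filter, pseudocount, model, site and left-out array. All 7 calls of flower versus stem were kept under every one, as were those of SWEET3, SWEET7 and SWEET8 in flower versus leaf, 10 calls in all. SWEET2, SWEET4 and SWEET5 kept the flower versus leaf call under 28. SWEET1 kept its flower versus leaf call under 25, and SWEET16 under 22. In stem versus leaf the call was kept under 27 for SWEET2 and under 24 for SWEET1 and for SWEET4.

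**Figure D4:**
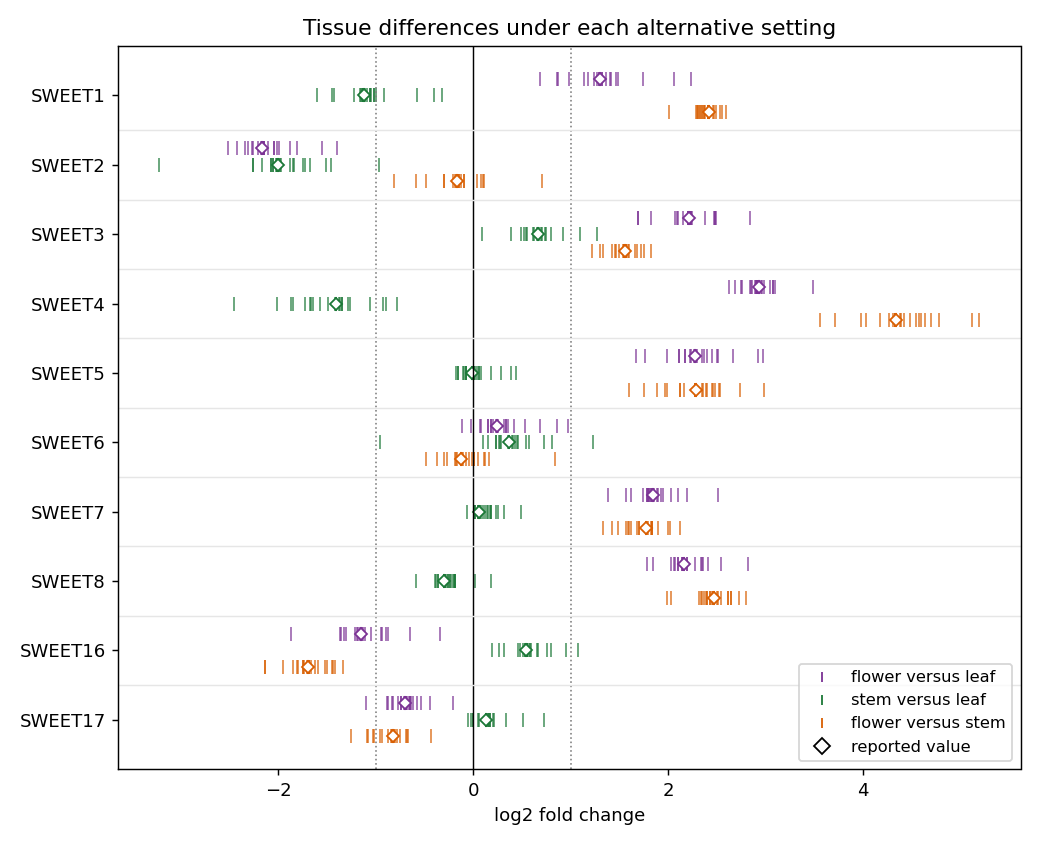
Log2 fold change of each SWEET transcript in the 3 tissue contrasts under each alternative setting (ticks) and as reported (diamonds); dotted lines mark the minimum fold. Flower versus stem of SWEET4 ranges from 3.55 to 5.19, and flower versus leaf of SWEET16 from -1.86 to -0.35.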

How the data were processed

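Signal intensity was made by the authors with Affymetrix Microarray Suite 5.0 at a target of 500, per the labels' protocols. The stated GapC scaling to 8500 had not been applied to the deposited intensity, whose 2% trimmed mean was 500. Probe-level backgrounds and detection calls were not used here, and the number of arrays limits the precision.

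The deposited values were scaled to a 2% trimmed mean of 500, quantile normalised and put on the log2(intensity + 32) scale. Without the 64 control probe sets, 17526 probe sets at 100 or more in 3 arrays were tested with limma 3.58.1 in R 4.3.3 (lmFit, eBayes with a trend). The procedure was tested on simulated data. Members, lists and tests were chosen with earlier results of these data known. Named genes were all members, the 2 most alike genes of each called member, and the most changed called gene of each sugar list in each direction. Alternatives were other scalings, pseudocounts of 1 and 100, no minimum fold, no trend, no filter or a minimum of 200, site, only the tissues compared, a replicate block, a floor of 100 and each array left out. Promoter and protein sequences were not analysed here.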

Additional observations from a re-analysis of the deposited data

Results flagged for a closer look

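SWEET6 in stem replicate 2 had a normalised intensity of 44.0, far below the 157 to 176 of the other 3 stem arrays. Its gap to the nearest of them was 0.907 of the whole range. Of 20 member and tissue groups of 4 arrays checked in this way it was the only one to stand apart, and chance gives about 1 in 20.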

How the results depend on the processing

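The total counts of called members (8 in flower versus leaf, 3 in stem versus leaf, 7 in flower versus stem, 0 by site and 0 for the interaction) stayed within 1.5 times under the other settings, with these exceptions, whose cause was not tested beyond the fewer arrays. Stem versus leaf gave 0 members with growth chamber arrays only, as labelled or with sites exchanged, and flower versus leaf gave 4 with growth chamber arrays only, sites exchanged. Totals can hide a change of members. Under GapC scaling stem versus leaf still gave 3, but 2 higher and 1 lower against 0 higher and 3 lower, with SWEET2 common to both. Of all calls in that contrast 85.7% were then higher. Under median centring flower versus leaf still gave 8, but 5 higher and 3 lower against 6 and 2. Leaving out 1 array gave 6 to 8, 2 to 3, 7 to 8 and 0 to 0 (site). Stem and flower arrays with the same replicate number had r = 0.0893 to 0.1501 in their deviations, positive in 4 of 4 pairs and over 0.1 in 3, and the 6 pairs with a leaf array had -0.1613 to 0.0245. Since not every pair passed 0.1, the numbers were not taken as pairing, though a pairing of stem and flower arrays was not excluded. A replicate block, which also grouped the leaf arrays by number, gave 8, 3 and 7.

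Over all probe sets, 3234 were called in flower versus leaf, 3274 in stem versus leaf and 3146 in flower versus stem. These counts were 5613, 6039 and 6221 with no minimum fold. Flower versus leaf gave 5678 under GapC scaling, and growth chamber arrays only, sites exchanged, gave 1172 in flower versus leaf and 894 in stem versus leaf. Scaling moved the share of higher among all calls. In flower versus leaf it was 49.7%, and 89.5% under GapC scaling and 39.7% under median centring; the median of all probe sets moved to 0.70 and -0.13, and to 0.14 under trimmed mean scaling. In stem versus leaf GapC scaling gave 85.7% against 49.9% (median 0.46), and growth chamber arrays only, sites exchanged, 64.8%. In flower versus stem the share was 54.9%, and 66% under GapC scaling (median 0.17), 64.3% under trimmed mean scaling (0.15) and 40% under median centring (-0.15).

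Differences that were not called turned sign as follows. SWEET5, stem versus leaf (-0.01), became 0.43 under GapC, 0.038 under trimmed mean and 0.059 under median scaling, 0.011 at a pseudocount of 100, 0.078 in greenhouse arrays, 0.062 with site as a covariate and sites exchanged, 0.39 in greenhouse arrays with sites exchanged, 0.0093 with the replicate block and 0.017 with the floor. It spanned -0.18 to 0.28 with 1 array left out. SWEET8, stem versus leaf, became 0.18 under GapC scaling and 0.018 in growth chamber arrays. SWEET17, stem versus leaf, became -0.0071 in greenhouse arrays and -0.052 in growth chamber arrays with sites exchanged, and spanned -0.021 to 0.33 with 1 array left out. SWEET7, stem versus leaf, spanned -0.059 to 0.25. SWEET2, flower versus stem, became 0.11 under GapC and 0.082 under trimmed mean scaling, 0.70 in greenhouse arrays and 0.043 in growth chamber arrays with sites exchanged, and spanned -0.49 to 0.10. SWEET6 became -0.11 (flower versus leaf), -0.95 (stem versus leaf) and 0.84 (flower versus stem) in greenhouse arrays with sites exchanged. Its flower versus stem value was 0.17 under GapC and 0.13 under trimmed mean scaling, 0.11 in growth chamber arrays and 0.045 with site as a covariate and sites exchanged. It spanned -0.48 to 0.0060 in flower versus stem and -0.026 to 0.42 in flower versus leaf with 1 array left out. SWEET6 was not tested at a signal minimum of 200.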
